A study of Danio rerio with 7 samples.

Results

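The zebrafish mitochondrial genome transcripts are described here in whole larvae of a CD36 overexpression line, across diet and exposure to CACF. Members were the rows of the deposited tables whose gene name begins with mt-, and 13 of 29567 rows did. All 13 are protein-coding. The 2 ribosomal and 22 transfer RNA rows of the same chromosome carry other names in the files, and they are described beside the 13, so that all 37 rows of chromosome MT (GRCz11) are accounted for.

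The 7 libraries came from larvae at 15 days post fertilization, all of the CD36 overexpression genotype, in which CD36, a membrane receptor for long-chain fatty acids, is overexpressed. The normal diet (12%) group holds fish 1, 2 and 4, the high-fat diet (24%) group holds fish 2 and 4, and the group on the high-fat diet with CACF (40 µg/ml) holds fish 2 and 4. CACF was given overnight in E3 buffer once feeding had ended, and per the labels' protocols the untreated larvae were handled the same way without it. The labels do not spell out CACF, and they name no promoter, founder line or pooling of larvae. Separate clutches or dishes are not stated, and p-values therefore reflect library-to-library spread, which may be technical. The normal diet is the control, and the series' title names effects of CACF on lipid accumulation and on liver cancer.

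Mitochondria keep a small circular genome that encodes core subunits of the respiratory chain and of ATP synthase, together with the ribosomal and transfer RNAs needed to translate them. It is copied into long transcripts that are cut at the transfer RNAs. The messengers are then stabilised and degraded at their own rates, and they need not all be polyadenylated to the same degree. The nucleus encodes the remaining respiratory subunits, the RNA polymerase and every processing factor. Heart, ion-transporting cells and some muscle fibers are rich in mitochondria. The library kit named in the labels selects polyadenylated RNA, so all values here, those of ribosomal and transfer RNA above all, are what that selection retained. How far it retained each messenger was not tested.

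Depth was 12699552 to 22543693 reads per library, recovered as whole reads from the deposited normalized counts. Median correlations across rows with the other libraries were 0.877 for normal-diet fish 1 and 0.858 for CACF fish 2, which set them apart, where the remaining 5 had 0.918 to 0.930. In fish 1 of the normal diet the lens crystallin list summed to 108001 TPM, against 804 to 2759 TPM in the other 6 libraries. Immediate early genes summed to 2302 TPM there and 1467 TPM in CACF fish 2, against 166 to 327 TPM elsewhere. All 18 skeletal muscle and all 10 neuron markers were detected in every library, as whole larvae would have them.

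Reads of the 37 mitochondrial rows made up 17.8%, 10.1% and 7.74% of all reads in normal-diet fish 1, 2 and 4. They made up 13.96% and 10.8% in high-fat fish 2 and 4, and 28.2% and 20.9% in the CACF libraries. In reads, both CACF libraries lay above all 5 others, while the high-fat libraries lay inside the normal-diet range. As a percent of the summed TPM of reference genes, the rows held 25.6, 19.7 and 14.8% on the normal diet. They held 26.5 and 20.6% on the high-fat diet, and 47.4 and 35.8% with CACF. By that measure CACF was again highest, and high-fat fish 2 lay just above the normal-diet range. That sum includes the transfer RNA row trnS1, at 22693 TPM in high-fat fish 2 and 13863 TPM in normal-diet fish 1. The deposited TPM of trnS1 was out of line with its coverage, as given below, so the place of high-fat fish 2 is not firm. A share of reads is set by all other transcripts too. In bulk RNA, more or fewer cells rich in mitochondria cannot be told apart from more or less mitochondrial RNA per cell. The 95% Wilson interval of any of these shares of reads was at most 0.0406 percentage points wide and covers counting error only.

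The mean share of reads was 24.6 ± 5.18% with CACF (SD, n = 2), 11.9 ± 5.25% on the normal diet (SD, n = 3) and 12.4 ± 2.24% on the high-fat diet (SD, n = 2). CACF exceeded the normal diet by 12.7 percentage points, a 2.07-fold difference (exact two-sided permutation test, p = 0.2, the smallest this design allows). CACF exceeded the high-fat diet by 12.2 points, 1.98-fold (exact permutation p = 0.333, again the smallest possible). High-fat minus normal diet was 0.526 points (exact permutation p = 1.0), and its sign depended on single libraries. It was 3.48 points when fish 1 of the normal diet was left out, -0.371 and -1.53 points when fish 2 or fish 4 of that diet was, and -1.06 points when high-fat fish 2 was. Taking the lens and immediate early lists out of the total gave -0.0389 points for the diets and left the CACF differences at 12.2 points each.

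**Figure D1:**
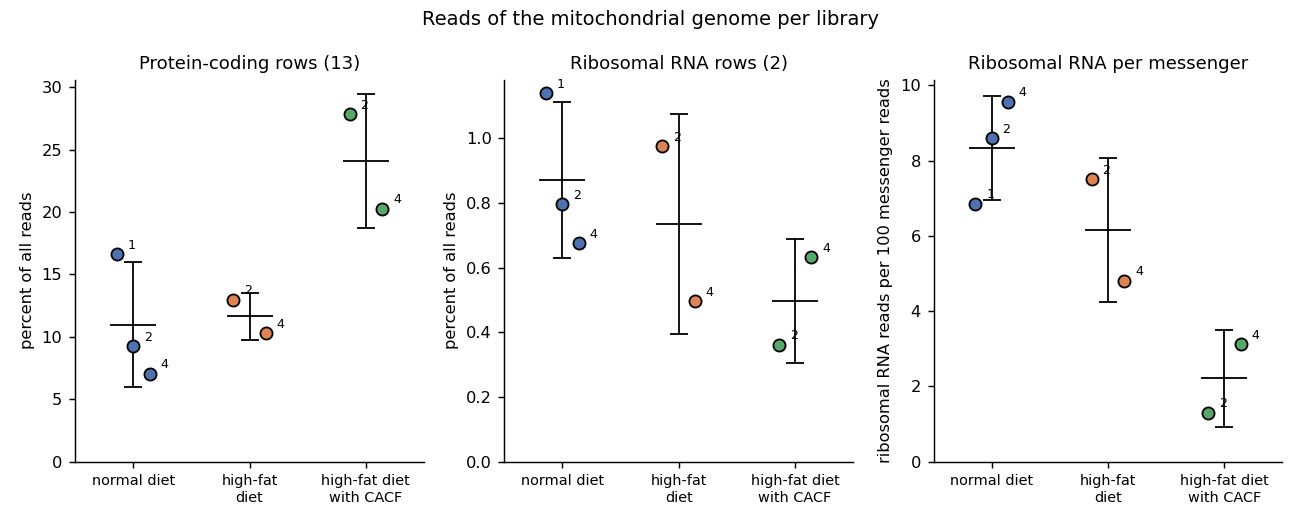
Each point is 1 library with its fish number, and lines and bars give the group mean ± SD (n = 3, 2 and 2). The left and middle panels show the percent of all reads in the 13 protein-coding and the 2 ribosomal RNA rows, and the right panel shows ribosomal RNA reads per 100 messenger reads. CACF libraries are highest on the left (27.9 and 20.3%) and lowest on the right (at most 3.12).

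Of the 13 messengers, 0 passed the test in any comparison (limma on log2 normalized counts, Benjamini-Hochberg over 20906 rows). In the comparison of the high-fat with the normal diet, 0% of all rows passed in either direction. For CACF against the normal diet 0% passed as higher and 0.148% as lower, and for CACF against the high-fat diet 0% and 0.0143%. All 13 passed the filter on low values. At an unadjusted p under 0.05, 9 of 13 were higher with CACF than on the normal diet, against 5.14% of all rows higher and 8.59% lower. The same count was 2 of 13 for CACF against the high-fat diet (9.71% of all rows higher, 6.24% lower) and 1 of 13 for the high-fat diet against the normal one (1.37% higher, 4.67% lower), and 0 of 13 were lower in each. Leaving out CACF fish 2 or fish 4 of the normal diet took the count of 9 to 1, leaving out fish 2 of the normal diet took it to 2, and the count of 2 ranged from 0 to 8 over the libraries left out. DESeq2 on the recovered reads called 1 messenger, mt-atp6, higher with CACF than on the normal diet (adjusted p = 0.0024; 0.697% of rows called higher) and 0 for CACF against the high-fat diet (3.72% of rows) or between the diets (0%), and edgeR's quasi-likelihood test called 0 in each (0% of rows higher). A limma fit with fish number as a replicate block called 5 messengers for CACF against the normal diet (0.0526% of rows higher), 2 for CACF against the high-fat diet (2.2%) and 0 between the diets (0%), although no label pairs the fish. The block also takes normal-diet fish 1, alone with its number, out of the contrast with the normal diet, and leaving that library out with no block called 0.

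The messengers were higher on average with CACF than in both other groups, apart from mt-nd6 against the high-fat diet. The median log2 fold change of the 13 was 1.21 against the normal diet, with 13 of 13 positive, and 1.07 against the high-fat diet, with 12 of 13 positive. The median over all rows was near zero in both, at -0.0005 and -0.01, where scaling by size factors tends to put it. Scaled to reads outside the mitochondrial genome, the median over all rows was 0.34 and 0.27. That of the messengers was then 1.55 and 1.34. Libraries did not overlap for 7 of 13 messengers against the normal diet (16.3% of all rows higher without overlap) and for 12 of 13 against the high-fat diet (24.8%). The 2 comparisons share the CACF libraries. The 13 messengers come from the same libraries and are cut from long transcripts, so these counts are not of independent observations. Without CACF fish 2 the medians were 0.91 and 0.70, and without normal-diet fish 1 they were 1.69 and 1.07. Between the high-fat and the normal diet the median was 0.14, with 10 of 13 positive, beside -0.05 over all rows, and it was 0.64 with fish 1 of the normal diet left out and -0.11 with its fish 4 left out. Libraries did not overlap for 1 messenger there (11.5% of all rows higher, 14.1% lower).

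**Figure D2:**
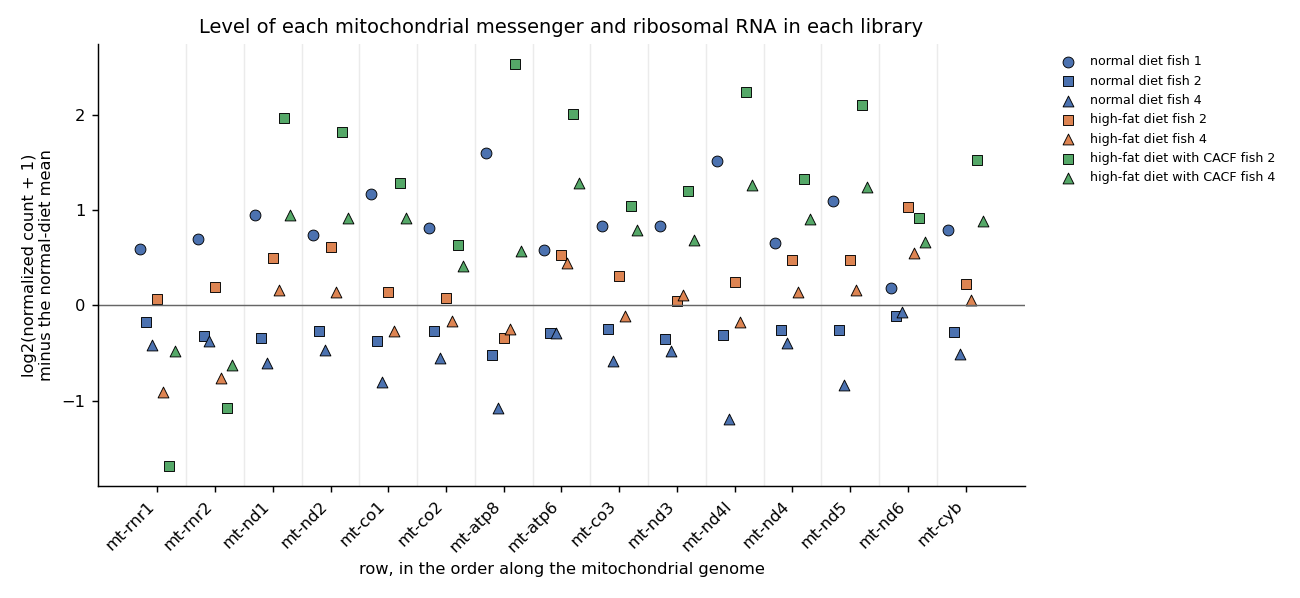
Each point is the log2(normalized count + 1) of a row in 1 library minus the normal-diet mean of that row, in the order along the genome, with color for the group and shape for the fish number. Normal-diet fish 1 lies above the other 2 normal-diet libraries for every row shown. CACF fish 2 is the highest library for 11 of the 13 messengers and the lowest for both ribosomal RNAs.

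Complex I, the NADH dehydrogenase that passes electrons to ubiquinone, takes 7 of the 13 messengers. mt-nd5 (chromosome MT, 12897 to 14717) encodes a proton-pumping subunit and had 89659, 34912 and 23353 normalized counts on the normal diet, 58001 and 46838 on the high-fat diet, and 180643 and 98902 with CACF. Both CACF libraries exceeded every other, though CACF fish 4 exceeded normal-diet fish 1 by little. Its log2 fold change was 1.68 ± 0.56 (SE) against the normal diet (limma adjusted p = 0.282) and 1.36 ± 0.61 against the high-fat diet (adjusted p = 0.327).

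mt-nd1, whose product forms part of the ubiquinone site, had 107446, 44043 and 36560 normalized counts on the normal diet, 78621 and 62212 on the high-fat diet, and 218048 and 107520 with CACF. CACF fish 4 and normal-diet fish 1 were almost level for this gene. mt-nd2 and mt-nd4, both proton-pumping subunits, had log2 fold changes of 1.37 ± 0.47 and 1.12 ± 0.43 (SE) for CACF against the normal diet (limma adjusted p = 0.293 and 0.324). mt-nd3, a small subunit, had 0.95 ± 0.41 there (limma adjusted p = 0.355). mt-nd4l, whose frame runs into that of mt-nd4, had the widest range among the complex I messengers, from 2383 normalized counts in normal-diet fish 4 to 25834 in CACF fish 2, and a log2 fold change of 1.75 ± 0.68 (limma adjusted p = 0.329).

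mt-nd6 (chromosome MT, 14714 to 15232) lies on the minus strand, unlike the other 12 messengers. It had 38828, 31675 and 32604 normalized counts on the normal diet, 70287 and 50183 on the high-fat diet, and 64656 and 54502 with CACF. Every library on the high-fat diet, with or without CACF, was above every normal-diet library, and normal-diet fish 1 did not stand out. The log2 fold change was 0.80 ± 0.30 (SE) for the high-fat diet against the normal one (unadjusted p = 0.028, limma adjusted p = 0.785), 0.79 ± 0.30 for CACF against the normal diet (limma adjusted p = 0.321) and -0.0007 ± 0.33 for CACF against the high-fat diet (adjusted p = 1.0). It was the only messenger whose 2 high-fat libraries both exceeded all 3 normal-diet libraries. Its sign for CACF against the high-fat diet turned positive with TMM (0.01), all reads (0.06), reads outside the mitochondrial genome (0.28) or quantile normalization (0.40), and stayed negative in edgeR and DESeq2.

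mt-cyb (chromosome MT, 15308 to 16448), the cytochrome b of complex III, had 282067, 133650 and 114220 normalized counts on the normal diet, 189837 and 169482 on the high-fat diet, and 468815 and 300828 with CACF. CACF fish 4 was just above normal-diet fish 1. The log2 fold change was 1.21 ± 0.50 (SE) against the normal diet (limma adjusted p = 0.344) and 1.07 ± 0.55 against the high-fat diet (adjusted p = 0.388).

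Complex IV, cytochrome c oxidase, passes electrons to oxygen, and its 3 catalytic core subunits come from mt-co1, mt-co2 and mt-co3. mt-co1 (chromosome MT, 6425 to 7975) had 1292305, 442507 and 327097 normalized counts on the normal diet, 630128 and 474362 on the high-fat diet, and 1392392 and 1084733 with CACF. Normal-diet fish 1 lay between the 2 CACF libraries, so the groups overlapped. For CACF against the normal diet mt-co1 had a log2 fold change of 1.104 ± 0.68 (SE; limma adjusted p = 0.490), mt-co2 0.52 ± 0.52 (adjusted p = 0.671) and mt-co3 0.92 ± 0.53 (adjusted p = 0.467). mt-co2 had the smallest difference of the 13 in that comparison. With quantile normalization, which maps the top-ranked rows of every library to the same values, mt-co1 was 0 and mt-co2 -0.18 against the normal diet, and 0 and -0.24 against the high-fat diet.

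mt-atp6 (chromosome MT, 9052 to 9735) encodes the subunit that forms the proton path of ATP synthase, complex V. It had 191971, 104887 and 104468 normalized counts on the normal diet, 184492 and 175012 on the high-fat diet, and 518275 and 311814 with CACF. The CACF libraries stood clear of all 5 others, and normal-diet fish 1 was close to the high-fat libraries. The log2 fold change was 1.65 ± 0.45 (SE) against the normal diet, 3.14-fold (unadjusted p = 0.0058, limma adjusted p = 0.235), the smallest p among the 13. It was 1.16 ± 0.50 against the high-fat diet (limma adjusted p = 0.301) and 0.49 ± 0.45 for the high-fat diet against the normal one (adjusted p = 0.820). In the authors' deposited table mt-atp6 had a log2 fold change of 1.63 with a standard error of 0.54 for CACF against the normal diet. Its adjusted p there was 0.119 (the authors' DESeq2). No messenger passed in that table, beside 278 of the 20803 rows with an adjusted p. DESeq2 on the recovered reads did call mt-atp6 in the same comparison, as given above.

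mt-atp8 encodes a small membrane subunit of the same complex and shares 7 bases with mt-atp6. Its reads were poorly held by the count table. Aligned bases, taken as the authors' deposited coverage times length, came to 1518 to 4136 per counted read for mt-atp8, against 105 to 129 for 11 of the other 12 messengers and 173 to 206 for mt-nd4l. The log2 fold changes of mt-atp8 (1.55 ± 0.78 against the normal diet, limma adjusted p = 0.414) rest on a small part of the reads over it, as do those of mt-nd4l in lesser degree.

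**Figure D3:**
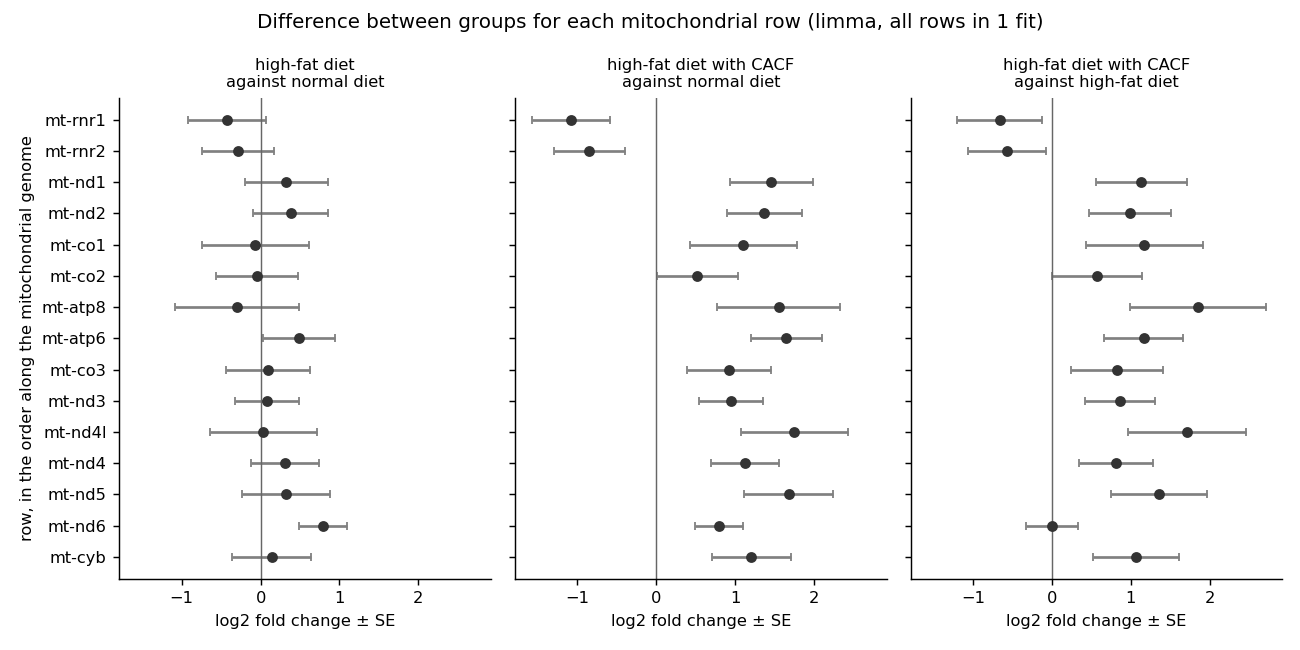
Points give the log2 fold change and bars the standard error of each messenger and ribosomal RNA in the 3 comparisons, in genome order. The messengers lie right of zero in both CACF panels except mt-nd6 at -0.0007 in the last, and both ribosomal RNAs lie left of zero in all 3.

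Per unit of length, the messengers kept a steep and stable order of levels. mt-co1, mt-co2, mt-co3 and mt-atp6 were the 4 highest in TPM in all 7 libraries, and mt-cyb was 5th in all but CACF fish 2, where it was 6th. mt-co2 led in 4 libraries and mt-co1 in normal-diet fish 1 and both CACF libraries. In high-fat fish 2 the levels ran from 28888 TPM for mt-co2 and 27202 TPM for mt-co1 down to 2152 TPM for mt-nd5. mt-nd3, mt-nd4l and mt-nd5 held the 3 lowest places in TPM in all 7 libraries, whereas in counted reads per kilobase mt-atp8, whose reads the count table holds in small part, was the lowest in all 7. mt-nd6 moved most in this order, from 6th in 4 libraries to 10th in normal-diet fish 1 and CACF fish 2. The order among mt-co1, mt-co2 and mt-co3, and among the 3 lowest, differed between libraries of the same group.

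The make-up of the messenger reads does not depend on scaling between libraries. mt-co1 alone took 28.2 to 39.2% of them, and the 3 complex IV messengers together took 54.8 to 69.4%. mt-co2 took 15.8, 17.4 and 17.6% on the normal diet, 14.8 and 15.6% on the high-fat diet, and 10.5 and 12.5% with CACF. The CACF libraries were below all 5 others. The mean was 0.678 of the normal-diet mean (exact permutation p = 0.2) and 0.753 of the high-fat mean (exact permutation p = 0.333), both the smallest p the design allows, and over the 13 messengers the adjusted p was 0.52 and 0.722.

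mt-nd6 took 1.18, 2.25 and 2.84% of messenger reads on the normal diet, 3.34 and 2.98% on the high-fat diet, and 1.48 and 1.73% with CACF. Both high-fat libraries were above every other library, and the CACF mean was 0.507 of the high-fat mean (exact permutation p = 0.333, adjusted 0.722). mt-nd5 took 2.72, 2.48 and 2.03%, then 2.76 and 2.78%, then 4.13 and 3.14%, so that CACF was above both other groups. mt-atp6 took 5.83, 7.44 and 9.10% on the normal diet, 8.77 and 10.4% on the high-fat diet, and 11.8 and 9.91% with CACF, where CACF was above the normal diet and overlapped the high-fat diet. Groups did not overlap for 5, 5 and 6 of the 13 messengers in the 3 comparisons, in both directions, and with 2 or 3 libraries a group none could reach an adjusted p under 0.05. With no difference, the probability of no overlap is the smallest exact permutation p, 0.2, 0.2 and 0.333 in turn. The 13 percents of a library sum to a whole, so they are not independent.

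**Figure D4:**
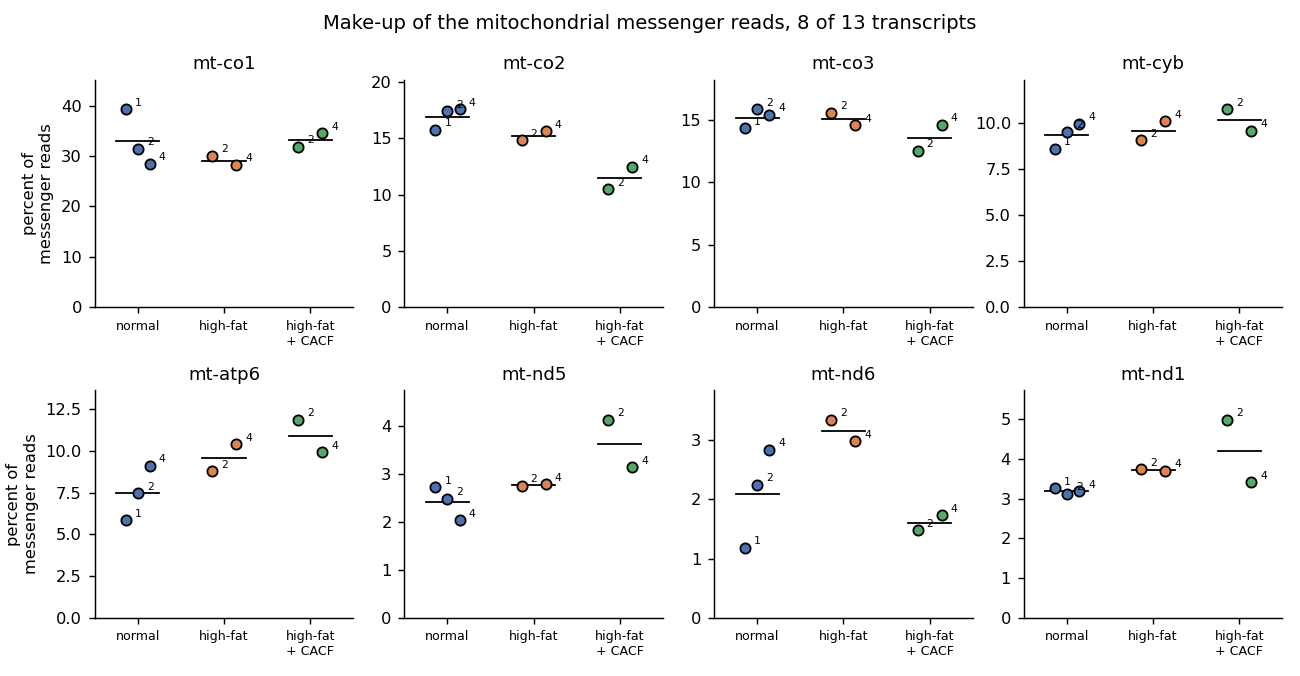
Each panel gives 1 messenger's percent of all mitochondrial messenger reads, with 1 point per library (fish number beside it) and a line at the group mean. CACF libraries are lowest for mt-co2 (10.5 and 12.5%), highest for mt-nd5 (4.13 and 3.14%), and below the high-fat libraries for mt-nd6.

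The ribosomal RNAs went the other way from the messengers. The small-subunit RNA, mt-rnr1 (listed as ENSDARG00000082753; chromosome MT, 1020 to 1971), had 105660, 62066 and 52811 normalized counts on the normal diet, 73323 and 37491 on the high-fat diet, and 21843 and 50262 with CACF. The large-subunit RNA, mt-rnr2 (ENSDARG00000080337; 2043 to 3725), had 120048, 59039 and 57002, then 84549 and 43513, then 35069 and 48016. For both genes the CACF libraries were below all normal-diet libraries (16.7% of all rows lower without overlap), and CACF fish 4 was above high-fat fish 4. CACF against the normal diet gave log2 fold changes of -1.08 ± 0.49 (SE; limma adjusted p = 0.377) for mt-rnr1 and -0.85 ± 0.45 (adjusted p = 0.435) for mt-rnr2, so neither passed. Without CACF fish 2 they were -0.48 and -0.62. Against the high-fat diet they were -0.66 ± 0.54 (limma adjusted p = 0.607) and -0.56 ± 0.49 (adjusted p = 0.640).

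Ribosomal RNA reads per 100 messenger reads were 6.85, 8.59 and 9.56 on the normal diet, 7.51 and 4.81 on the high-fat diet, and 1.3 and 3.12 with CACF. Both CACF libraries were below all 5 others, including normal-diet fish 1, the library nearest to them in messenger share. The CACF mean of 2.21 ± 1.29 (SD, n = 2) was 0.265 of the normal-diet mean of 8.34 ± 1.37 (SD, n = 3; exact two-sided permutation test, p = 0.2) and 0.359 of the high-fat mean of 6.16 ± 1.91 (SD, n = 2; exact p = 0.333), each the smallest p the design allows. This ratio is within a library, so it is free of scaling between libraries, and it was chosen after its values had been seen.

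Transfer RNA rows held 279 to 541 reads in all per library, and the 4 of the 22 most counted in each library held 90.1 to 97.0% of these. Of the 22 rows, 5 passed the filter on low values and 17 did not. By mean normalized count the 4 highest were the rows that RefSeq names trnS1, trnC, trnN and trnY, all on the minus strand. In normal-diet fish 1, high-fat fish 2 and CACF fish 2 trnY was not among the 4 most counted. trnS1 (ENSDARG00000081369; 7976 to 8046), next to mt-co1 on the opposite strand, had 215, 170 and 164 normalized counts on the normal diet, 423 and 317 on the high-fat diet, and 161 and 242 with CACF. Both high-fat libraries were above all the others. Its log2 fold change was 1.01 ± 0.31 (SE) for the high-fat diet against the normal one (unadjusted p = 0.010, limma adjusted p = 0.785) and -0.89 ± 0.34 for CACF against the high-fat diet (adjusted p = 0.254), though 0.04 in TPM. trnN (ENSDARG00000081938) had -1.41 ± 0.53 for CACF against the high-fat diet (limma adjusted p = 0.249), trnY (ENSDARG00000080128) -1.77 ± 0.78 (adjusted p = 0.313) and trnC (ENSDARG00000082789) -0.66 ± 0.51 (adjusted p = 0.585). The fifth tested row, trnF (ENSDARG00000083480), lies on the plus strand and had 0 to 19.1 normalized counts. Its log2 fold change was 0.18 ± 1.41 (SE) for the high-fat diet against the normal one. With CACF it was -1.28 ± 1.41 against the normal diet and -1.46 ± 1.55 against the high-fat diet. The trnY row was as sparse, at 2.49 to 18.6 normalized counts, so neither row gives a firm direction.

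By strand, the 5 tested minus-strand rows, mt-nd6 and the trnS1, trnC, trnN and trnY rows, had positive log2 fold changes in 5 of 5 cases for the high-fat diet against the normal one (median 0.80), in 2 of 5 for CACF against the normal diet (median -0.50) and in 0 of 5 for CACF against the high-fat diet (median -0.89). The 12 plus-strand messengers had medians of 0.12, 1.29 and 1.098 in the same comparisons, with 9, 12 and 12 of 12 positive. Negative values for CACF were not particular to the minus strand, since both ribosomal RNAs and the sparse trnF row, negative too, lie on the plus strand. Of the 5 minus-strand rows 4 are transfer RNAs, and trnY among them is too sparse for a firm direction. The difference between the strands was not tested. This grouping was made after the values had been seen, and the sign of mt-nd6 for CACF against the high-fat diet depends on the scaling. The count table also holds few of the transfer RNA reads. The authors' deposited coverage of trnC was 4363 to 11215 reads per base while its normalized counts were 37.4 to 105, and for trnS1 the deposited TPM of 13863 to 22693 went with a coverage of only 166 to 697. No source used here says whether reads were counted by strand.

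Nuclear genes of mitochondria, by lists that hold the respiratory subunits and the factors that copy, process and regulate mitochondrial RNA, had no member past the test in any comparison. The lists of complexes were drawn by gene symbol. Genes such as ndufa4 and atp5if1b were therefore placed by name and need not be subunits of the complex listed. Among 38 tested genes of the complex I list the median log2 fold change was 0.09 for CACF against the normal diet, with 23 positive. It was -0.14 for 17 of complexes II and III (assembly factors included), 0.01 for 18 of complex IV and 0.03 for 19 of complex V. Against the high-fat diet these medians were 0.01, -0.13, -0.02 and -0.13, while the messengers of the mitochondrial genome had 1.07. cox8a, a complex IV subunit gene, had 0.70 ± 0.24 (SE) for CACF against the normal diet (limma adjusted p = 0.293), and cox7a1, another, had -0.89 ± 0.29 (adjusted p = 0.281). Of 23 tested genes for the outer membrane, import and the matrix, the median was 0.11 against the normal diet and 0.20 against the high-fat diet, and tomm70a, an import receptor, had 0.86 ± 0.32 and 1.03 ± 0.35 (limma adjusted p = 0.313 and 0.214).

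Of 18 tested genes for mitochondrial transcription and DNA maintenance, 12 were above the normal diet with CACF, with a median of 0.26. polrmt, the mitochondrial RNA polymerase, had 84.4, 93.8 and 73.4 normalized counts on the normal diet, 74.0 and 89.9 on the high-fat diet, and 98.1 and 136 with CACF (0.46 ± 0.35 against the normal diet, limma adjusted p = 0.562). tfam, which packs mitochondrial DNA and starts its transcription, had 297, 413 and 505, then 594 and 692, then 456 and 551, highest on the high-fat diet (0.70 ± 0.29 for the diets, limma adjusted p = 0.785). primpol and dna2, DNA synthesis and repair factors of nucleus and mitochondria, had 1.36 ± 0.34 and 1.40 ± 0.48 for CACF against the normal diet (limma adjusted p = 0.208 and 0.293). mterf3, known in mammals as a brake on mitochondrial transcription, had -1.03 ± 0.40 for CACF against the high-fat diet (limma adjusted p = 0.259).

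Of 32 genes for mitochondrial RNA processing and turnover, 19 were above the normal diet with CACF (median 0.04) and 11 above the high-fat diet (median -0.14). On the high-fat diet without CACF 25 were above the normal diet (median 0.30). lrpprc, whose product binds and stabilises mitochondrial messengers in mammals, had 563, 438 and 390 normalized counts on the normal diet, 544 and 427 on the high-fat diet, and 1038 and 569 with CACF. The CACF libraries were the 2 highest, though fish 4 was close to normal-diet fish 1 (0.75 ± 0.32, limma adjusted p = 0.355). Its partner slirp had 489 in CACF fish 2 but 186, the lowest of all 7, in CACF fish 4. trmt10c, a subunit of the enzyme that cuts the 5′ ends of mitochondrial transfer RNAs, had 249, 219 and 347, then 255 and 252, then 104 and 163, lowest with CACF (-1.03 ± 0.33 against the normal diet, limma adjusted p = 0.273).

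Biogenesis regulators had the widest spread of these lists. ppargc1a, a coactivator that raises transcription of nuclear mitochondrial genes, had 112, 129 and 48.9 normalized counts on the normal diet, a mean of 17.5 on the high-fat diet, where fish 4 was the higher at 24.8, and 137 and 102 with CACF. The high-fat libraries were below all others. The log2 fold change was -2.41 ± 0.56 (SE) for the high-fat diet against the normal one (limma adjusted p = 0.785) and 2.81 ± 0.61 for CACF against the high-fat diet (adjusted p = 0.115). esrrga and esrrb, estrogen-related receptors, had 1.86 ± 0.44 and 2.12 ± 0.70 in the latter comparison (limma adjusted p = 0.120 and 0.209). ppargc1b, the related coactivator, was lower than on the normal diet in both other groups, by -0.73 ± 0.28 on the high-fat diet (limma adjusted p = 0.785) and -0.95 ± 0.28 with CACF (adjusted p = 0.252).

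**Figure D5:**
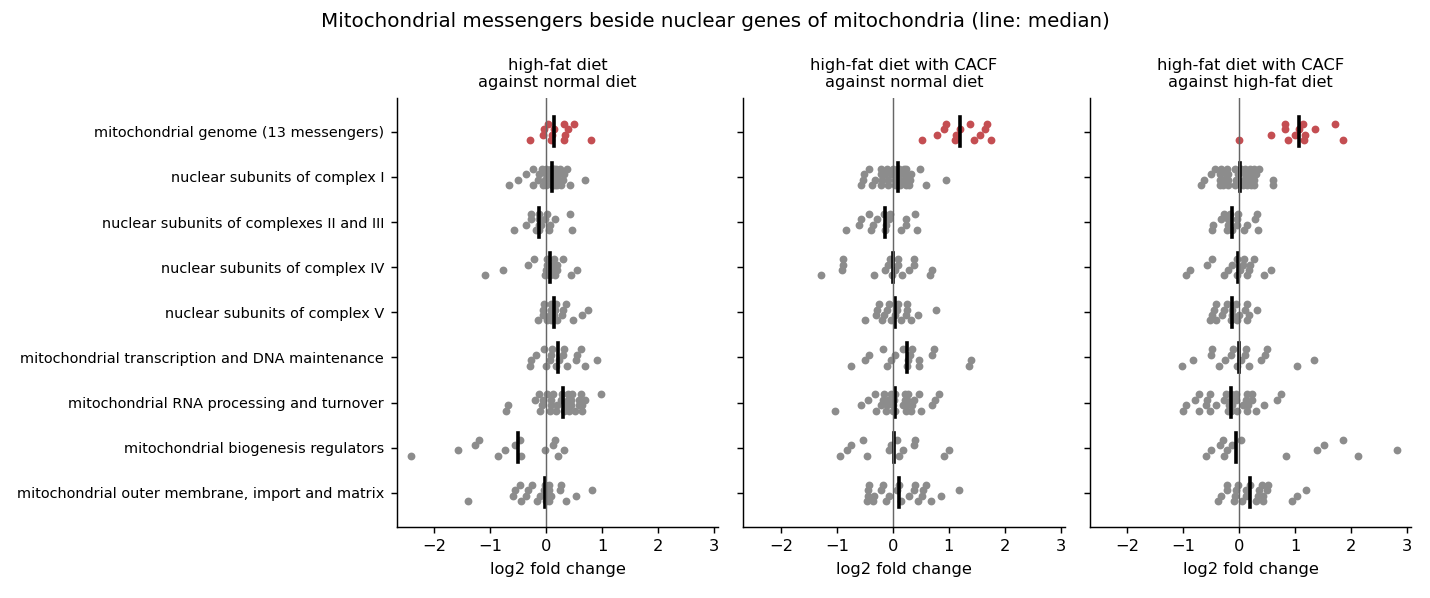
Each dot is the log2 fold change of 1 gene, by list, and the thick line is the list's median. Mitochondrial messengers have medians of 0.14, 1.21 and 1.07 in the 3 panels, while the nuclear lists have medians between -0.51 and 0.30.

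Ionocyte and exocrine pancreas markers separated the CACF libraries from the others in summed TPM as deposited. These sums were not scaled to the TPM of all reference genes, which came to 739551 in high-fat fish 2 and 884988 in CACF fish 2. Narrow gaps, as for ionocyte, heart and neuron sums, therefore do not establish a difference. The muscle, heart, neuron, hepatocyte, enterocyte and photoreceptor sums with CACF overlapped those on the normal diet. Against the high-fat libraries alone, only the muscle sums overlapped. There the neuron sums were higher with CACF, and the hepatocyte, enterocyte and photoreceptor sums were lower. The heart sums were lower by very little, 46.3 TPM in CACF fish 2 beside 46.8 TPM in high-fat fish 4. Of 11 heart rows 6 passed the filter on low values. Skeletal muscle markers summed to 35818 to 65291 TPM on the normal diet and to 32592 and 66274 TPM on the high-fat diet. With CACF they summed to 37884 and 40891 TPM, inside the range of the other libraries. Muscle fiber types were not told apart. Of 19 tested muscle rows 3 were above the normal diet with CACF, with a median log2 fold change of -0.53. Heart markers summed to 35.3 to 48.8, 46.8 to 49.2 and 43.9 to 46.3 TPM, with tbx5a, nppa, nppb or gata4 at 0 in 5 libraries, and ionocyte markers to 80.9 to 120, 96.8 to 111 and 123 to 139 TPM, with slc4a1b at 0 in 5 and foxi3b in 1. Neuron markers summed to 1103 to 2727, 1760 to 1952 and 2198 to 2394 TPM. Of 11 enterocyte rows 0 were above the normal diet and 0 above the high-fat diet with CACF (median log2 fold changes -1.77 and -2.17). Of 13 photoreceptor rows 4 and 3 were (medians -0.68 and -0.87). Against the normal diet 2 of these photoreceptor rows passed the limma test as lower, beside 0.148% of all rows. Exocrine pancreas markers, whose digestive enzyme messengers can fill a library, summed to 132 to 1409, 249 to 660 and 11.6 to 111 TPM, with cela1.3 at 0 in CACF fish 2. In these unscaled sums, ionocyte markers were highest and pancreas markers lowest with CACF. By row, though, 2 of 11 tested ionocyte rows were above the normal diet with CACF (median log2 fold change -0.51). Against the high-fat diet 5 of the 11 were above (median -0.26). Of 14 pancreas rows 0 were above the normal diet and 1 above the high-fat diet (medians -3.80 and -3.17). The part of these cell types in the mitochondrial values was not tested.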

How the data were processed

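Whole-larva RNA was sequenced with a stranded kit that selects polyadenylated RNA, per the labels' protocols. The submitters' processing notes list FastQC, Trimmomatic, HISAT2 and DESeq2 and give no versions. The build, GRCz11, comes from the names of the deposited files, and no source used here names the counting program. Per library, the authors deposited coverage (a signal per base), FPKM and TPM. TPM of assembled loci and of reference genes are listed together. The authors also deposited 2 tables of 29567 rows with normalized counts (a signal scale). In the same tables the authors deposited log2 fold changes with their standard errors, the Wald statistic as a score, and the p-value with its adjusted form. Within each library, all deposited normalized counts (100%, tolerance 0.001) were multiples of a single step, from which reads were recovered. As they are not raw counts, count tests served as alternatives.

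Rows with at least 10 normalized counts in at least 2 libraries (20906) entered 1 limma 3.58.1 fit (R 4.3.3) of log2(normalized count + 1) over all 7 libraries, with a variance trend and Benjamini-Hochberg adjustment at 0.05. This scale understates folds of low rows. Shares were compared by exact permutation over libraries. The fit was run on simulated reads with known changes and 1 fixed spread for all rows. It was required to recover large changes only, which gives no measure of its power for the smaller folds of the messengers. Ribosomal and transfer RNA rows were named from RefSeq (GRCz12tu) by equal start, end and kind, for 37 of 37 rows, and the coordinates printed are those of the files.

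The members and lists were chosen with earlier results of these data known. Named genes were all messengers and ribosomal RNAs, the transfer RNA rows highest in count or smallest in p, up to 4 genes per list by smallest p, and polrmt, tfam, lrpprc, slirp and ppargc1a. Alternatives were other pseudocounts, filters and scalings, TPM, FPKM, edgeR 4.0.16, DESeq2 1.42.0, a replicate block and each library left out.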

Additional observations from a re-analysis of the deposited data

How the results depend on the processing

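The number of libraries is a limit: the exact tests could not reach 0.05, and 1 library out of a group of 2 leaves a lone sample assumed to vary like the rest. Messenger counts are deep, so counting error is small, while transfer RNA rows are limited by depth. For CACF against the normal diet 13 of 13 messengers, which are not independent of each other, stayed positive without each library in turn. Their medians were 0.91 to 1.69. Against the high-fat diet 12 to 13 were positive, with medians of 0.70 to 1.39. The median for the diets ranged from -0.11 to 0.64. The causes of the changes below were not tested.

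The mitochondrial share of reads for the diets ran from -1.53 to 3.48 points without single libraries and was -0.0389 without the lens and immediate early lists. As a share of the summed TPM of reference genes, the diets differed by 3.49 points (exact permutation p = 0.4). That share includes the trnS1 row, whose deposited TPM was out of line with its coverage. DESeq2 called 1 messenger for CACF against the normal diet. Fish numbers 2 and 4 recur in each group, and same-numbered libraries deviated together (correlations of 0.183 to 0.416 for fish 2 and 4), but each comparison has only 2 shared numbers, the deviations of a group of 2 mirror each other, and no label says what a number marks, so the block is given as an alternative. It also drops normal-diet fish 1 from the contrasts with the normal diet. With fish number as a replicate block, 5 messengers were called for CACF against the normal diet (mt-atp6, mt-nd1, mt-nd2, mt-nd4l and mt-nd5), 2 for CACF against the high-fat diet (mt-nd4l and mt-nd5) and 0 for the diets. Within fish 2 and 4 the share differences under this block were 15.7, 12.2 and 3.48 points for CACF against the normal diet, CACF against the high-fat diet and the diets.

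For the diets, where the log2 fold changes were small, signs turned as follows. mt-co1 was 0.0046 scaled to reads outside the mitochondrial genome, 0.049 in FPKM and 0.52 with the block; mt-co2 was 0.025, 0.018 (all reads), 0.058 (quantile), 0.018 (TPM), 0.10 (FPKM) and 0.36 (block). mt-atp8 was 0.33 in TPM, 0.41 in FPKM and 0.50 with the block, and mt-rnr2 (ENSDARG00000080337) 0.064 with the block. With edgeR and DESeq2, mt-co3 was -0.036 and -0.0012, mt-nd3 -0.063 and -0.032, and mt-nd4l -0.42 and -0.38. Without single libraries the ranges were -0.91 to 0.062 for mt-rnr1 (ENSDARG00000082753), -0.76 to 0.19 for mt-rnr2, -0.0027 to 0.26 for trnC (ENSDARG00000082789), -0.47 to 0.52 for mt-co1, -0.32 to 0.36 for mt-co2, -0.84 to 0.50 for mt-atp8, -0.20 to 0.51 for mt-co3, -0.16 to 0.49 for mt-nd3, -0.56 to 0.79 for mt-nd4l, -0.10 to 0.87 for mt-nd5 and -0.11 to 0.54 for mt-cyb.

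For CACF against the normal diet, mt-co2 was -0.18 with quantile normalization, trnS1 (ENSDARG00000081369) ran from -0.17 to 0.41 and trnC from -1.21 to 0.19 without single libraries. For CACF against the high-fat diet, mt-co2 was -0.24 with quantile normalization, trnS1 0.045 in TPM, and trnC ran from -1.36 to 0.039. mt-nd6 was 0.28 (reads outside the mitochondrial genome), 0.058 (all reads), 0.015 (TMM), 0.40 (quantile), 0.24 (TPM) and 0.17 (FPKM), and ran from -0.24 to 0.24 without single libraries. The other values recomputed for the messengers, the ribosomal RNAs and the trnS1, trnC, trnN and trnY rows kept their sign, except mt-co1, which quantile normalization put at 0 in both CACF comparisons.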

Other observations

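Beside the genes, the abundance files list an assembled locus without strand at positions 1 to 950 of chromosome MT, the stretch before the first transfer RNA that holds the control region. It had 746, 622 and 506 TPM in normal-diet fish 1, 2 and 4, 533 and 508 TPM on the high-fat diet, and 462 and 598 TPM with CACF. The groups overlapped, whereas both CACF libraries were the 2 highest for 12 of the 13 messengers in TPM.

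The trnE row, next to mt-nd6 on the minus strand, had a deposited TPM of 920, 1416 and 1371 on the normal diet, 2694 and 2145 on the high-fat diet, and 2363 and 2087 with CACF. All 4 libraries of larvae on the high-fat diet were above the 3 normal-diet libraries, as for mt-nd6. The 2 rows abut, with mt-nd6 ending at 15232 and trnE starting at 15233, so their values are not independent. trnE had 0 to 10 counted reads, too few for a test, beside a deposited coverage of 2343 to 4225. The row was not among those named by rule, and how many of all rows separate this way in TPM was not counted.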
